A study of Mus musculus with 45 samples.

Results

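The 150 rows described here stood higher in hepatic stellate cells (HSCs) held for 2 hours in suspension after sorting than in 3 reference groups. They were selected on the measured counts, out of 23999 rows in the exon count tables, each row being a single unnamed gene. Levels were computed as L = log2(group mean CPM + 1), with CPM the count scaled to a library total of 1000000, and 9992 rows reached an L of at least 3 at 2 hours. Among these, the 150 members were chosen by the highest minimum of L at 2 hours minus L in chow-fed mice, in vehicle-treated mice and on day 1 of culture.

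HSCs are pericyte-like liver cells that store vitamin A as retinyl esters. On injury, or on plastic, they lose this store and turn into contractile myofibroblasts that lay down matrix. Enzymatic digestion of the liver, sorting and time in suspension are known to switch on rapid stress and immediate-early genes in many cell types, which is background and was not measured as such here.

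All cells came from mice labelled C57BL6/J, given in the study's methods as male C57BL/6JBomTac, with no engineered allele named. In the Western diet (WD) model, 4 libraries per group came from mice on chow (0 weeks) or on Western diet with fructose in the drinking water for 12, 16 or 24 weeks, and all of these mice were of the same age at the end. In the CCl4 model, groups were given the hepatotoxin CCl4 for 1 week (3 libraries), 4 weeks (4 libraries) or 8 weeks (3 libraries). Controls, labelled 0 weeks (4 libraries), were given only the oil vehicle, for 8 weeks by the study's account. At 1 and 4 weeks, CCl4 and length of dosing therefore cannot be told apart. For in vitro transdifferentiation (IVT), HSCs of healthy mice were kept in suspension for 2 hours or cultured on plastic in serum-containing medium for 1, 4, 8 or 12 days, with 3 libraries per time. HSCs were gated on retinoid autofluorescence in all 3 models, so cells of injured livers that had lost their retinoid could be missed. The study describes its cultures as technical triplicates and its sequenced RNA as biological replicates, so p-values in IVT measure the spread between these libraries, which may be technical. The study's methods give different lysis reagents for cultured and sorted cells, whereas the labels give the same buffer for all samples. Suspension and experiment, and lysis if it did differ, cannot be told apart in the difference between 2 hours and the in vivo controls.

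Library totals ranged from 2318311 to 7576527 counts, and a floor of 3 counts corresponded to 0.396 to 1.29 CPM. The counts did not follow the gene names listed beside them: B2m, which nearly every cell expresses, was listed at 0 to 1 counts, and Des and Col1a1, which mark HSCs and myofibroblasts, at 0 to 3 and 0 to 2 counts. The identity of the cells could therefore not be checked by markers, no row is given a gene name, and rows are given by their line under the header (row 21839). CPM was not divided by transcript length, so levels are compared between libraries for a row and not between rows. In bulk libraries, fewer cells of a type and less RNA per cell cannot be told apart.

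Replicate B at 2 hours stood apart from A and C over the members. The correlation of log2(CPM + 1) over the 150 rows was 0.96 between A and C, 0.78 between A and B and 0.79 between B and C, whereas over all 9992 rows it was 0.98, 0.96 and 0.95. These are correlations across rows within libraries, and rows are not independent replicates. In B, 41 members (27.3%) were at least 1 lower on the log2(CPM + 1) scale than the mean of A and C, against 2.38% of the 9992 rows, and 11 members were at least 1 higher. Row 13052 had 215, 8.93 and 167 CPM in A, B and C. Row 7546 had 42.8, 0.930 and 34.0 CPM. Row 4610 went the other way, with 122, 278 and 89.4 CPM. B was thus the lowest of the 3 libraries for 95 members, whereas A was the highest for 91. The median coefficient of variation at 2 hours was 34.1% over the members and 15.6% over all rows past the level filter. The rule used the mean of these 3 libraries, and the members' median L there was 4.37 against 5.55 for all 9992 rows. These values beside all rows are therefore descriptions. When B was left out of the choice, a setting added after seeing the data, 126 of the 150 rows were chosen again.

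**Figure D1:**
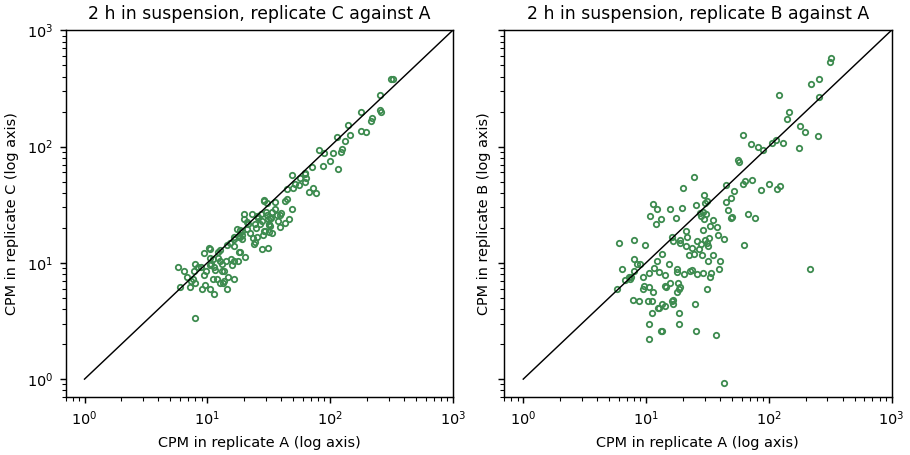
CPM of the 150 rows at 2 hours, with replicate C (left) or B (right) against replicate A, each point being a row and the line marking equal values, on log axes. Points lie near the line for C (r = 0.96 on log2(CPM + 1)) and scatter widely, mostly below it, for B (r = 0.78).

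The rise at 2 hours over the 3 reference groups is set by the rule and is given as description. Among all 13 groups, 2 hours was the highest for 115 members (76.7%), against 13.4% of the 9992 rows. The remaining members were highest in injured mice or on a later day of culture. Summed over the 150 rows, the level was 6381 ± 504 CPM (SD, n = 3) at 2 hours, 641 ± 15.8 CPM on day 1, 670 ± 117 CPM on chow (n = 4) and 793 ± 98.7 CPM on vehicle (n = 4). The sum at 2 hours was 8.04 to 9.96 times that of the 3 reference groups, and it was 6457 CPM over A and C alone. The median member had an L of 4.37 at 2 hours, 1.37 on day 1, 0.86 on chow and 1.11 on vehicle. Over all 9992 rows the medians of these groups ranged from 5.55 to 5.94. The median member was thus lower in each, including 2 hours, and the rule favoured low levels in the 3 reference groups. Day 1 was the reference nearest to 2 hours for 81 members, vehicle for 39 and chow for 30. In 148 of the 150 rows every 2-hour library was above every reference library. The exceptions were rows 7546 and 94, where replicate B fell below a control library.

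The largest margin was 4.33 (row 21839) and the smallest 1.77 (row 6666), with row 1893 the first outside at a margin that also rounds to 1.77. Row 6666 had an L of 6.88 at 2 hours, 5.10 on vehicle and 0.81 on day 1, and row 1893 had 5.01, 3.24 and 2.79. The 5 rows just inside the limit had margins of 1.77 to 1.79 and the 5 just outside 1.76 to 1.77, so the limit cuts a continuous range.

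**Figure D2:**
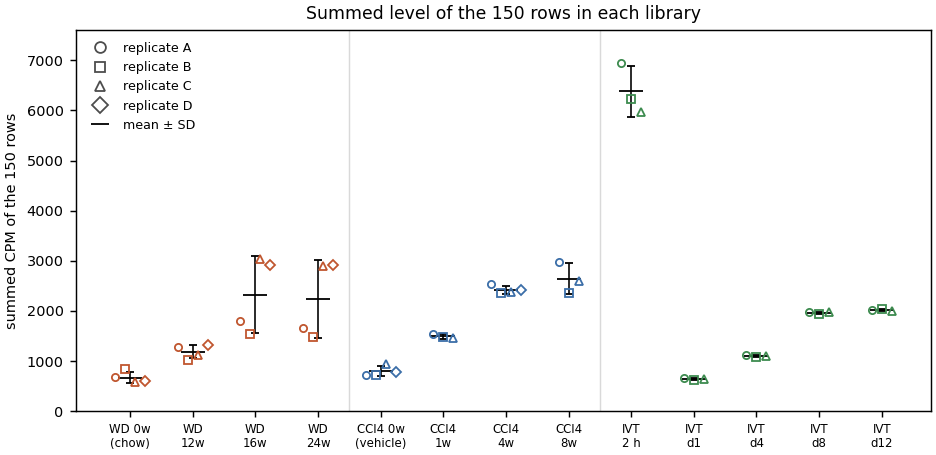
Summed CPM of the 150 rows in each of the 45 libraries, by group, with symbols for the replicate letter and black bars for mean ± SD. The 2-hour libraries sit between 5970 and 6944 CPM, and at 16 and 24 weeks of WD replicates C and D lie above A and B.

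After day 1 the members as a set stayed low, while a minority of rows returned. The median L was 1.10 on day 4, 1.36 on day 8 and 1.11 on day 12. On day 12, 130 members (86.7%) were still at least 1 below their 2-hour level, against 17.3% of the 9992 rows. The 2-hour level entered the rule, so this count is a description. On a later day, 34 members (22.7%) reached at least 1 above day 1, against 12.8% of the 9992 rows. Day 1 entered the rule as well, and members were chosen for a low level there, so this count is a description too. For 11 members (7.33%) the level on day 12 was above that at 2 hours, against 57.3% of the 9992 rows. In 41 members L was under 2 in every group other than the suspended cells, which held for 50 of the 9992 rows.

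The summed level rose from 641 CPM on day 1 to 1099 ± 19.9 on day 4, 1959 ± 18.7 on day 8 and 2020 ± 24.0 on day 12 (n = 3 each). A single row carried much of this. Row 15396 had 257, 267 and 280 CPM at 2 hours, 15.7, 13.3 and 13.7 on day 1, then 306, 298 and 302 on day 4, 840, 839 and 811 on day 8 and 889, 898 and 831 on day 12. It thus fell within a day, was back above its 2-hour level by day 4 and ended highest on day 12, with 43.2% of the summed level. Without it the sum was 798 ± 16.1 CPM on day 4 and 1147 ± 16.8 CPM on day 12. In vivo the same row was at 71.5, 70.7, 38.6 and 47.6 CPM on chow and at 18.6, 23.5, 11.6 and 4.997 CPM after 24 weeks of WD, so its libraries at 24 weeks were all below chow.

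Neither day 4 nor day 12 entered the rule, and they were compared with edgeR's quasi-likelihood test with Benjamini-Hochberg adjustment over all rows tested, calling rows at an FDR of at most 0.05 with a mean log2CPM above 2 over both groups. Of the 150 rows, 45 passed this level filter, 19 were called higher on day 12 and 10 lower. Among the 11391 rows of the table that passed the filter, 26.2% were called higher and 27% lower. Members near 0 on either day could pass it only through the other day, so their counts are descriptions beside these shares. Row 14065 had 2.04, 3.33 and 3.08 CPM on day 4 and 28.8, 23.5 and 28.1 on day 12 (log2FC 3.25 ± 0.17 SE, FDR 1.28e-10). Row 5330 rose from 4.63, 5.06 and 5.13 to 23.1, 24.1 and 27.6 CPM (log2FC 2.33 ± 0.25, FDR 8.81e-07), and row 23351 from 11.2, 9.84 and 12.3 to 41.1, 37.6 and 39.1 CPM (log2FC 1.82 ± 0.13). In all 3 rows the replicates of day 4 and day 12 did not overlap, and day 12 lay near or above the 2-hour libraries of 30.4, 32.7 and 25.6 CPM for row 14065 and 6.41, 8.93 and 8.44 CPM for row 23351.

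Of the members called lower on day 12, row 11501 changed most. It had 145, 198 and 126 CPM at 2 hours, 30.6, 33.7 and 40.9 on day 1, 37.1, 33.1 and 28.3 on day 4 and 5.54, 4.13 and 4.64 on day 12 (log2FC -2.78 ± 0.21 against day 4, FDR 1.12e-08). Row 22832 fell from 8.71, 11.7 and 12.3 to 3.32, 2.71 and 3.05 CPM (log2FC -1.84 ± 0.25), and row 17225 from 12.0, 8.25 and 10.3 to 3.601, 3.42 and 2.25 CPM (log2FC -1.72 ± 0.37, FDR 0.000921). For these 3 rows every day-12 library was below every day-4 library.

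**Figure D3:**
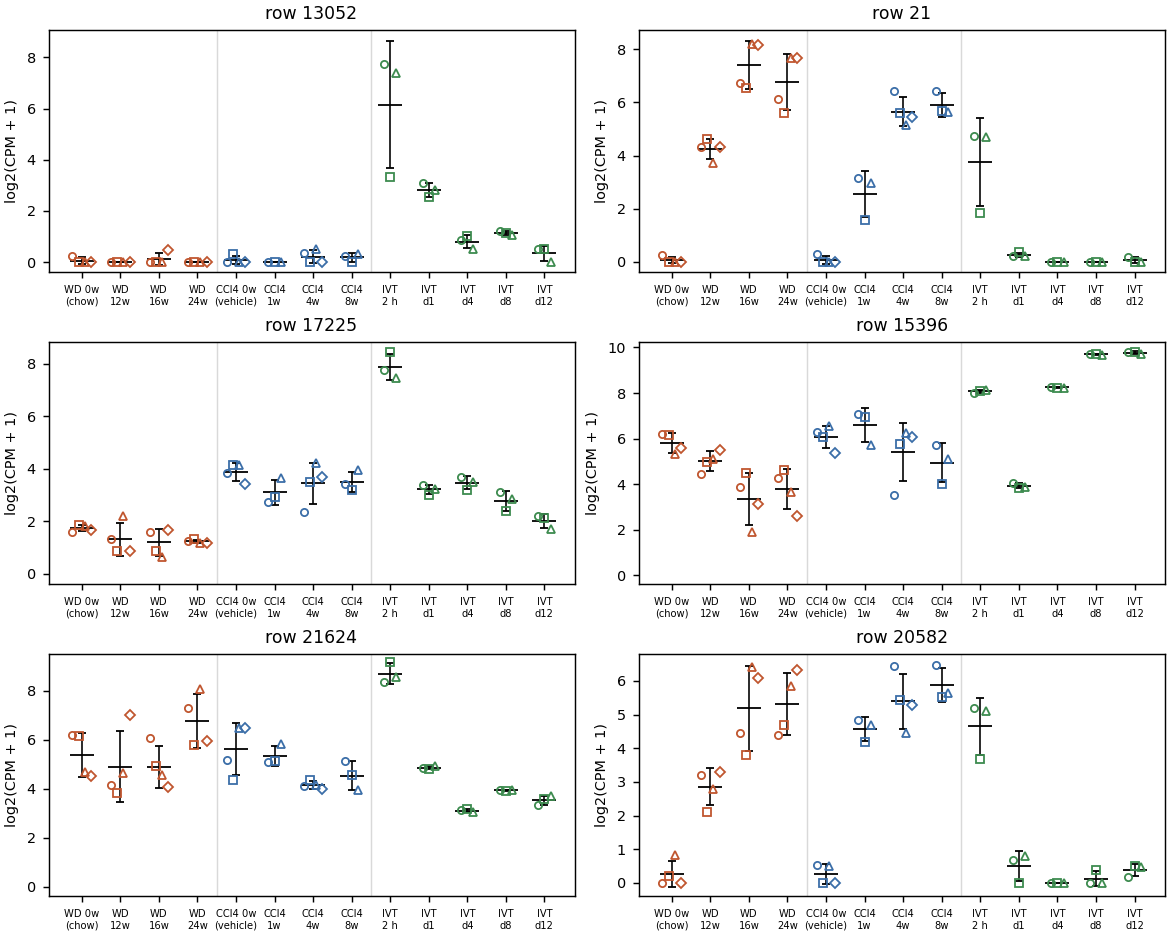
log2(CPM + 1) of 6 of the rows in every library, with symbols for the replicate letter as in the plot of summed levels (circle A, square B, triangle C, diamond D) and black bars for mean ± SD of the plotted values. Rows 13052 and 17225 peak at 2 hours only, rows 21 and 20582 are also high in injured mice, row 15396 returns in culture, and row 21624 spreads widely among the mouse libraries.

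The members divided by whether their level was also higher in injured mice, counting a group when L was at least 1 above its control. A WD week reached this in 44 members (29.3%), a CCl4 week in 63 (42.0%), both models in 32 and neither in 75. Among all 9992 rows these shares were 10.5% for WD and 12.0% for CCl4. The controls entered the rule, so these counts are a description. With days 4 to 12 taken into account, 53 members were higher in vivo only, 22 both in vivo and on a later day, 12 on a later day only and 63 in none of these. The 5 rows whose L over the 13 groups was most like the mean of all members were 11620, 3035, 18672, 18646 and 7368, each with a correlation of 0.92, and the least like it was at 0.11. Row 7368 had 8.01, 10.8 and 9.84 CPM at 2 hours and was at 1.005 CPM or less elsewhere. With B left out of the choice at 2 hours, 39 rows were higher in WD, 59 in CCl4, 35 on a later day and 69 in none.

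**Figure D4:**
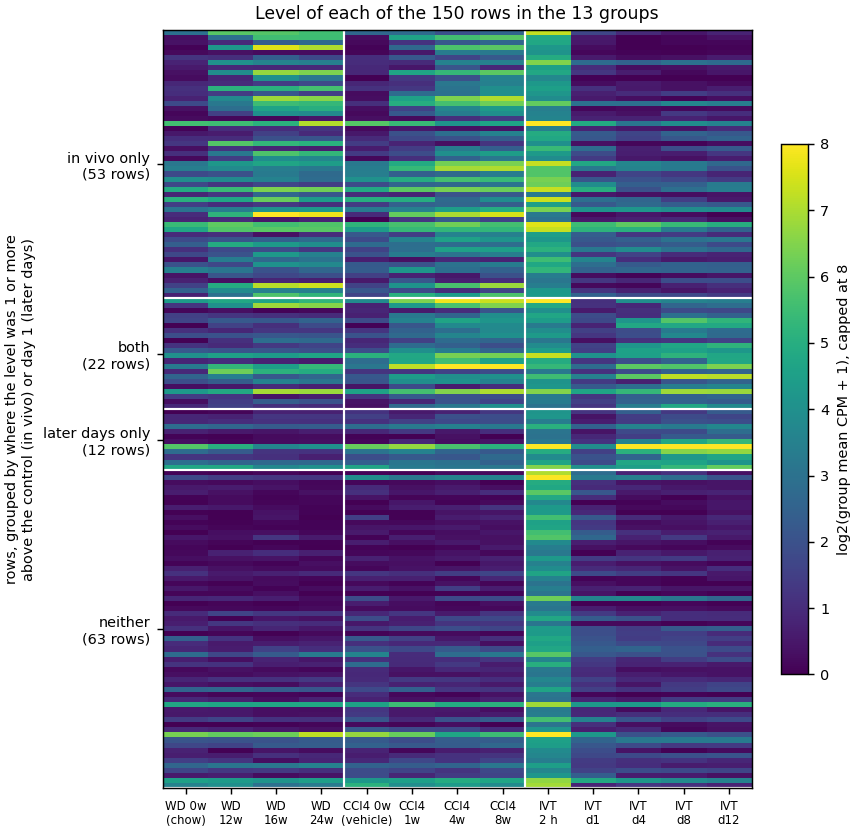
Level of each member (rows of the heatmap) in the 13 groups, as log2(group mean CPM + 1) capped at 8, grouped by where the level was at least 1 above the control (in vivo) or above day 1 (later days). The column for 2 hours is bright throughout, and 53 rows brighten in injured mice alone. Another 63 rows rise by at least 1 neither in injured mice nor on later days. Some of these 63 are still bright in other groups, with an L of up to 7.24 at 24 weeks of WD.

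The 63 rows of the last class had a median L of 4.34 at 2 hours and of 0.36 to 1.36 in the other 12 groups. Row 13052, whose 8.93 CPM in replicate B at 2 hours was close to its day-1 level, was at 0 counts in 23 of the 30 mouse libraries and at no more than 0.414 CPM in the others, and it had 7.46, 4.81 and 6.03 CPM on day 1. Row 10955 had 56.9, 73.3 and 53.1 CPM at 2 hours, 2.13, 4.39 and 3.92 on day 1 and at most 1.73 CPM in any mouse library. Row 6359 had 31.2, 34.2 and 13.5 CPM at 2 hours and at most 2.08 CPM in a mouse library. Row 9220 had 29.6, 38.5 and 18.8 CPM at 2 hours and at most 0.648 CPM in a mouse library. Rows 10955, 6359 and 9220 were higher in replicate B than in A, unlike row 13052, and all 4 shared a peak at 2 hours with no rise in injured mice.

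The row with the largest margin, 21839, rose over its control in WD and did not in CCl4. It had 197, 132 and 134 CPM at 2 hours and 6.85, 4.70, 7.15 and 8.20 CPM on chow. On WD it was at 133, 35.9, 38.5 and 28.6 CPM at 12 weeks and at 53.8, 27.8, 43.5 and 56.1 CPM at 24 weeks, so that no WD library overlapped chow. On CCl4 it stayed between 1.54 and 6.47 CPM, against 3.12 to 7.39 CPM on vehicle, and in culture it was at or below 3.02 CPM from day 1 on. The difference between its 2 injury effects, tested as described below, was 2.44 ± 0.83 on the log2 scale and did not pass (edgeR, FDR 0.121).

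Other members were high in the CCl4 model. Row 18234 had 258, 382 and 200 CPM at 2 hours, 15.9, 26.2, 7.81 and 2.78 CPM on vehicle, and 222, 104 and 162 CPM at 8 weeks of CCl4. On WD it had 49.9, 85.3, 8.23 and 6.71 CPM at 24 weeks, overlapping the 14.99, 34.9, 20.4 and 8.93 CPM of chow, with A and B high and C and D low. Row 168 had 23.6, 8.74 and 16.3 CPM at 2 hours, at most 0.347 CPM on vehicle, 0.396, 0.455 and 0.428 CPM at 1 week and 11.2, 5.61 and 8.29 CPM at 8 weeks of CCl4. It stayed at or below 0.679 CPM in every WD library, so 8 weeks of CCl4 was apart from all WD groups. The difference between the models was -3.41 ± 1.27 for row 18234 (edgeR, FDR 0.169) and did not pass, and row 168 was under the level filter of that test.

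Several members that were near 0 in healthy mice reached in injured mice levels above those in suspension. For 19 members (12.7%) a WD week was above 2 hours, and for 20 members (13.3%) a CCl4 week was. The shares over the 9992 rows were 56.3% and 66.7%, and the rule had chosen members for a high 2-hour level. Row 21 had 25.4, 2.60 and 25.02 CPM at 2 hours and 1 count in 1 library each of chow and vehicle. It had 18.9, 23.5, 12.1 and 18.8 CPM at 12 weeks of WD, 105, 92.3, 289 and 288 at 16 weeks and 69.4, 48.0, 203 and 202 at 24 weeks. On CCl4 it had 7.92, 1.97 and 6.85 CPM at 1 week, and 84.3, 50.04 and 48.5 at 8 weeks. It was at or below 0.283 CPM in every cultured library. Row 2256, with 13.6, 4.46 and 7.03 CPM at 2 hours, reached 120, 110, 333 and 324 CPM at 24 weeks of WD and 226, 153 and 164 CPM at 8 weeks of CCl4. Row 2256 at these times, and row 21 at 16 and 24 weeks of WD and 8 weeks of CCl4, were thus higher in HSCs of injured mice than after suspension. At 12 weeks of WD and 1 week of CCl4 row 21 was below replicates A and C at 2 hours. Both rows were low in replicate B at 2 hours.

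In WD at 16 and 24 weeks, replicates C and D stood apart from A and B. The summed level of the members was 1544 to 1791 CPM in A and B at 16 weeks against 2922 to 3032 in C and D, and 1481 to 1654 against 2906 to 2911 at 24 weeks. Row 2256 carried 18.2% of that gap, row 21 12.6%, row 10759 10.9%, row 22586 9.74% and row 14222 8.83%. The labels give no batch for these letters. In A and B alone 35 members were at least 1 above chow at 24 weeks, and in C and D alone 44.

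The 41 members that were low in replicate B at 2 hours had a sum that changed steeply in vivo, a division made after seeing the data and given without a test. Their sum was 37.1 ± 8.88 CPM on chow and 791 ± 448 CPM at 24 weeks of WD, and 41.6 ± 2.59 CPM on vehicle and 753 ± 151 CPM at 8 weeks of CCl4. Single rows carried much of the sum at 24 weeks of WD, row 10759 with a mean of 166 CPM and row 21 with 131 CPM. The other 109 members went from 633 ± 109 to 1447 ± 340 CPM and from 752 ± 98.7 to 1890 ± 182 CPM. By number of rows the 2 sets were alike, with 12 of the 41 and 32 of the 109 at least 1 above chow in a WD week, and 20 and 43 at least 1 above vehicle in a CCl4 week.

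The later injury times were compared with the earlier ones, none of which entered the rule. From 12 to 24 weeks of WD, 14 of the 150 rows were called higher and 0 lower, with 52 rows past the level filter. Of the 12237 rows of the table past it, 5.63% were called higher and 0.392% lower. Members near 0 in chow could pass the filter only where they were high in WD mice, so the count is given over all 150 and is a description beside these shares. At an unadjusted p under 0.05 edgeR had 24 members higher and 6 lower, and DESeq2 called 16 higher and 0 lower. Row 21 had a log2FC of 2.77 ± 0.49 (FDR 0.00464). Row 22586 went from 7.11, 18.1, 10.4 and 13.7 CPM to 30.6, 33.6, 117 and 190 CPM (log2FC 2.87 ± 0.63, FDR 0.0117), and row 4119 from 1.16, 2.89, 0.509 and 2.33 CPM to 3.48, 4.95, 20.3 and 18.7 CPM (log2FC 2.81 ± 0.73, FDR 0.0304). All 24-week libraries of these 3 rows lay above all 12-week libraries, with C and D highest. The count of higher rows was 5 without replicate C of 12 weeks and 9 without replicate C or without replicate D of 24 weeks, and 1 row was called lower without replicate D of either time.

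From 1 to 8 weeks of CCl4, 28 members were called higher and 5 lower, with 65 past the filter. Of the 12151 rows past it, 22.5% were called higher and 24% lower. Members near 0 at either time could pass the filter only through the other, so these counts are descriptions beside the shares. Among the rows called, row 21 rose most (log2FC 3.33 ± 0.42, FDR 3.85e-05), with the values given above. Row 9399 went from 1.98, 1.52 and 2.35 CPM to 15.1, 18.5 and 24.6 CPM (log2FC 3.20 ± 0.48, FDR 0.000121), and row 8339 from 1.72, 1.52 and 1.07 CPM to 21.3, 10.4 and 11.8 CPM (log2FC 3.19 ± 0.63, FDR 0.00104). Row 8339 was thus still near its vehicle level of 0 to 2.15 CPM after 1 week. Of those called lower, rows 18866, 15396 and 4571 fell most. Row 18866 was at 3.92, 5.72, 4.01 and 2.43 CPM on vehicle, 19.8, 21.4 and 12.4 at 1 week and 4.29, 4.31 and 5.27 at 8 weeks (log2FC -2.06 ± 0.40, FDR 0.000929). Row 4571 had 17.8, 18.2 and 8.56 CPM at 1 week and 6.87, 3.02 and 5.53 CPM at 8 weeks (log2FC -1.59 ± 0.39, FDR 0.00417). In both rows the 1-week libraries were above those of vehicle and of 8 weeks. Row 18866 was transient, being below its 1-week libraries at 4 weeks and within its vehicle range at 8 weeks. Row 4571 fell only in part. Its 4-week libraries were all above vehicle and overlapped those of 1 week. At 8 weeks its libraries at 6.87 and 5.53 CPM were still above every vehicle library. The count of lower rows was 2 without replicate A or B of 1 week or replicate B of 8 weeks, and 3 without replicate C of 8 weeks.

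To test injury against controls that the choice had not used, the 150 rows were chosen again with only control replicates A and B of each model, which kept 134 members, and injured mice were compared with control replicates C and D. At 12 weeks of WD 14 of these rows were called higher and 0 lower, with 43 past the filter. Over the 11928 rows past it, 13.5% were called higher and 1.97% lower. At an unadjusted p under 0.05 edgeR had 28 rows higher and 2 lower, and DESeq2 called 17 higher and 1 lower. The count of higher rows was 8 without chow replicate C and 9 without chow replicate D, and 1 row was called lower without replicate C of 12 weeks. At 24 weeks 20 rows were called higher and 1 lower, with 52 past the filter, against 17.2% and 7.69% of 11975 rows. The number lower was 2 without replicate B of 24 weeks. Rows near 0 in the controls could pass the filter only through the injured mice and could then only be called higher, so these counts, and those for CCl4 given next, are descriptions beside the shares over all rows.

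Row 21 was at 0 counts in both held-out chow libraries. Its mean of 131 ± 83.6 CPM (n = 4) at 24 weeks was at least 410-fold higher than the floor of 3 counts over those 2 libraries. Row 2256 was at 0.766 and 0.729 CPM in the held-out chow libraries (log2FC 8.08 ± 0.81, FDR 3.1e-05). Row 23901 had 0.255 and 0.182 CPM in these libraries and 47.6, 45.7, 127 and 117 CPM at 24 weeks (FDR 5.76e-05). Among the rows called, these 3 were the highest by log2FC, and each was higher in 4 of 4 WD libraries. The row called lower was 21038, which is no member, with 27.8, 47.2, 38.3 and 41.0 CPM on chow and 10.4, 13.6, 7.81 and 11.7 CPM at 24 weeks (log2FC -1.94 ± 0.43, FDR 0.00555).

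At 1 week of CCl4 20 of the rows were called higher and 5 lower against held-out vehicle, with 50 past the filter, where 11% of 11678 rows were called higher and 7.17% lower. The vehicle mice had been dosed for 8 weeks, so CCl4 and length of dosing cannot be told apart at 1 week. The count of higher rows was 12 without vehicle replicate C. The lower rows numbered 1 without vehicle replicate C or D, 2 without replicate A of 1 week and 3 without replicate B of 1 week. They numbered 0 with the replicate letter as a block and 0 when C and D chose the rows and A and B tested them, and DESeq2 called 6. At 8 weeks 35 were called higher and 6 lower, with 65 past the filter, where 19.1% of 12013 rows were called higher and 20.9% lower. With replicate B at 2 hours left out of the choice, 33 were higher and 3 lower at 8 weeks, and 17 and 3 at 1 week.

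Row 22586 was at 0.436, 0.239, 0.211 and 0 CPM on vehicle, 29.0, 17.003 and 22.2 at 1 week and 182, 95.8 and 119 at 8 weeks (FDR 6.52e-07 at 8 weeks). Row 20582 was at 0.436, 0, 0.422 and 0 CPM on vehicle and 87.0, 44.4 and 49.2 CPM at 8 weeks (FDR 2.3e-05), against 35.4, 11.7 and 33.2 CPM at 2 hours. Row 21 had no count in held-out vehicle, and its mean of 60.9 ± 20.2 CPM (n = 3) was at least 155-fold higher than the floor. For these rows the injured level was above or near that in suspension. Row 7596, which is no member, fell from 7.19, 8.35, 19.4 and 9.02 CPM to 1.55, 1.29 and 2.76 CPM (log2FC -3.08 ± 0.68, FDR 0.00277). Row 21038, also no member, fell from 48.6, 36.3, 38.8 and 59.7 CPM to 11.8, 14.2 and 8.29 CPM (log2FC -2.30 ± 0.30, FDR 5.07e-05). Row 21624, a member, fell from 34.9, 19.6, 89.1 and 88.2 CPM to 33.6, 22.4 and 14.3 CPM (log2FC -2.09 ± 0.31, FDR 0.000141). In row 21624 the held-out vehicle libraries C and D were the high ones, while A and B overlapped the 8-week libraries or lay just above them.

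Of the rows called higher against held-out controls, 17 were called in both models, which is 17 of the 20 at 24 weeks of WD and 17 of the 35 at 8 weeks of CCl4. In WD alone 3 were called, in CCl4 alone 18, and 0 in opposite directions. Over all rows of the tables, 1162 were called higher in both, which is 56.6% of the 2054 called in WD and 50.6% of the 2296 called in CCl4. The difference between these shares and those of the chosen rows was not tested. The 2 models have separate control libraries. Across the 79 rows tested in both, the correlation of the 2 log2FC was 0.77, and across all 13151 rows tested it was 0.80. Both are descriptions over rows that share libraries, and the members' value was near that of all rows.

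**Figure D5:**
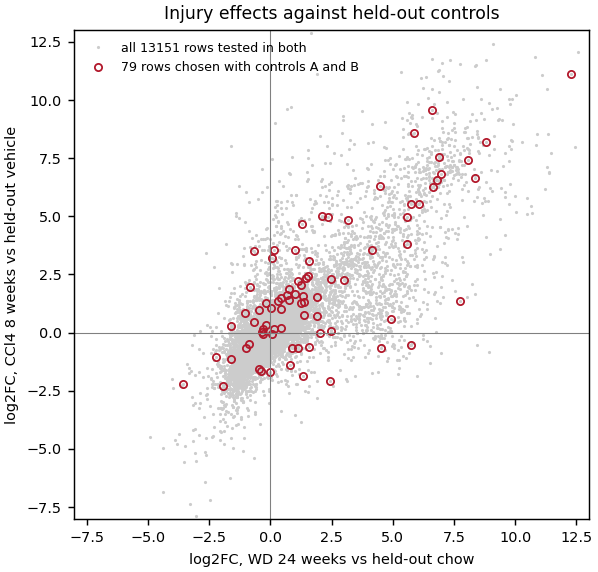
log2FC at 24 weeks of WD (x axis) and at 8 weeks of CCl4 (y axis) against the control libraries held out of the choice, for all 13151 rows tested in both (grey) and for 79 of the rows chosen with controls A and B (red circles). Values of rows with few or no control counts depend on the fit's prior count and are no bounds. The red circles follow the spread of all rows (r = 0.77 and 0.80).

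Whether the 2 effects differed was tested as WD minus CCl4 over the 26 libraries of both models, again with held-out controls. Of the rows, 3 had a higher effect in WD and 1 a lower effect, with 55 past the filter, where 1.99% of 11982 rows were called higher and 1.31% lower. Row 1752 had 0.511 and 2.00 CPM in held-out chow, 32.0, 18.7, 25.5 and 55.9 CPM at 24 weeks of WD, 0.844 and 2.43 CPM in held-out vehicle and 0.687, 3.02 and 0.251 CPM at 8 weeks of CCl4 (difference 5.24 ± 1.37 on the log2 scale, FDR 0.0341). At 2 hours it had 10.8, 25.3 and 9.84 CPM, so it was high in suspension and in WD and at control level in CCl4. Row 1893, which lies just outside the 150, was at 3.25, 4.31, 3.17 and 2.65 CPM at 24 weeks of WD and 38.6, 48.3 and 35.4 CPM at 8 weeks of CCl4 (difference -2.78 ± 0.49, FDR 0.00298). Of the higher rows 0 were called without chow C, without vehicle D or without replicate C of 8 weeks, and 1 without chow D, and 2 were called lower without replicate B of 24 weeks. At an unadjusted p under 0.05 edgeR had 11 rows higher and 12 lower with all libraries, and DESeq2 called 4 in each direction.

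Rows 21624 and 5558, which had the highest CPM of the members at 2 hours, were the other rows with a higher WD effect (differences 4.57 ± 1.08 and 3.24 ± 0.79, FDR 0.0187 and 0.0229). Row 21624 had 324, 582 and 378 CPM at 2 hours, and 71.6, 69.6, 24.8 and 21.7 CPM on chow. At 24 weeks of WD it had 156, 54.9, 266 and 60.1 CPM, overlapping chow. Row 5558 had 313, 533 and 380 CPM at 2 hours, 112, 103, 55.9 and 56.3 on chow and 166, 80.1, 261 and 92.0 at 24 weeks. In both rows the held-out chow libraries C and D were lower than A and B, and the held-out vehicle libraries were higher than the other 2. Both rows fell to 27.5, 27.3 and 29.4 CPM and to 17.7, 16.3 and 20.5 CPM on day 1.

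For comparison, 150 other rows were raised at 2 hours over both in vivo controls but held on day 1 (less than 1 lower). In these, 93 were within 1 of their 2-hour level or above it on day 12, against 20 of the members. The comparison rows were picked for staying near their 2-hour level on day 1, and the members for falling below it. This contrast in culture therefore follows in part from the choice. A CCl4 week was at least 1 above vehicle in 96 of them, and a WD week at least 1 above chow in 83, against 63 and 44 of the members. In replicate B at 2 hours, 45 of them (30.0%) were at least 1 below A and C, close to the 27.3% of the members. No test was made between the 2 lists, whose members were chosen by overlapping rules.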

How the data were processed

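The members and lists were chosen with earlier results of these data known. The authors deposited raw exon read counts per gene for 45 libraries, not normalized, after alignment to mm10 with STAR and HOMER counting that ignored strand and capped each position at 3 reads. The 3 tables were joined by line, since counts did not follow the listed names, and sequences could not be assigned. CPM used the column sum, and levels a pseudocount of 1 CPM. Tests used edgeR 4.0.16 in R 4.3.3 (quasi-likelihood, TMM, filterByExpr, Benjamini-Hochberg over all rows tested), with all groups of a model in the fit, and DESeq2 1.42.0 as an alternative. The selection and the count test were tested on simulated data. A floor of 3 counts was used for rows without counts. The floor covers counting error only, while ± gives the SD between libraries or the SE of the fit. Rows given singly were those with the 10 largest margins, the 5 highest at 2 hours, the 3 highest and 3 lowest called per comparison, those called in the difference of effects, 5 on each side of the limit and the 5 most like the mean profile. Rows named for replicate B, for the gap within WD and for carrying the sum were added after their values were seen. Alternatives were other scalings, filters, pseudocounts, a replicate block, other control sets and leaving out each library.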

Additional observations from a re-analysis of the deposited data

Results flagged for a closer look

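A test for a library far from the rest of its group (Dixon's critical value) marked 13 of 94 groups of 4 libraries, where chance marks about 1 in 20. Row 21839 was at 133 CPM in replicate A of 12 weeks of WD, and row 21624 at 127 CPM in replicate D of that time. The sum of the members without their 5 highest rows was 1213 CPM in replicate A of 12 weeks of WD. The other 10 marks were single libraries with counts in rows otherwise at 0 in that group. They were 1.28 CPM for row 7546 in chow C, 0.185 CPM for rows 13052 and 21 in chow A, 0.397 CPM for row 13052 in replicate D of 16 weeks of WD and 0.239 CPM in vehicle B, 0.218 CPM for row 21 in vehicle A, 0.679 CPM for row 168 in replicate A of 16 weeks of WD and 0.347 CPM in vehicle D, 0.422 CPM for row 9220 in vehicle C and 0.468 CPM for row 6359 in replicate D of 24 weeks of WD.

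The WD effect differed from the CCl4 effect in 4 rows by edgeR's test of the difference, by 5.24 for row 1752, 3.24 for row 5558, 4.57 for row 21624 and -2.78 for row 1893 on the log2 scale (FDR 0.0341, 0.0229, 0.0187 and 0.00298). Their libraries are given in the results.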

How the results depend on the processing

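Of 131 values under alternatives other than leaving out a library, 115 stayed within 1.5 times the reported count and 16 moved. Requiring a level of at least 4 at 2 hours, 95 of the 150 rows were chosen again. For 12 weeks of WD, DESeq2 called 1 row lower. For 24 weeks of WD, 2 rows were lower with DESeq2, with the replicate block and with controls exchanged (C and D choosing, A and B testing). For 1 week of CCl4, the rows called lower numbered 0 with the replicate block and 0 with controls exchanged, and 3 with replicate B at 2 hours left out of the choice. For 8 weeks of CCl4 they numbered 3 with that replicate left out and 2 with controls exchanged. For WD minus CCl4, the rows lower numbered 2 with library totals, 4 with DESeq2, 2 without the low-count filter, 3 with only the compared groups and 2 with controls exchanged, and the rows higher 5 with only the compared groups. The cause was not tested.

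Leaving out a library in turn gave 15 to 18 rows higher and 9 to 10 lower from day 4 to day 12, 5 to 16 and 0 to 1 from 12 to 24 weeks of WD, and 23 to 29 and 2 to 5 from 1 to 8 weeks of CCl4. Against held-out controls it gave 8 to 15 and 0 to 1 at 12 weeks and 15 to 20 and 1 to 2 at 24 weeks of WD, 12 to 17 and 1 to 6 at 1 week and 26 to 33 and 4 to 7 at 8 weeks of CCl4, and 0 to 3 and 1 to 2 for WD minus CCl4. Choosing the rows without a replicate letter kept 124 to 143 of the 150. Between same-lettered libraries of compared groups, correlations of deviations ranged from -0.38 to 0.36. The pair of 16 and 24 weeks of WD, where C and D lay above A and B at both times, was not among them. Pairing by letter was therefore not settled for those groups. The replicate block gave 20 rows higher and 11 lower from day 4 to day 12, and it moved no other count by over 1.5 times beyond those named. Rows at or under the floor of 0.396 to 1.29 CPM outside the suspended cells could not be ordered among the remaining groups at this depth.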
